A study of Mus musculus with 2 samples.

Results

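The genes described here encode the proteins of the cytosolic ribosome and their paralogs. They were chosen by symbol alone, as every Rpl, Rps, Rplp or Rpsa symbol of a mouse ribosomal protein, with kinases of the Rps6k family and symbols marked as pseudogenes left out. The rule found 86 of the 24532 genes in the table. Of these, 77 encode core proteins (43 of the large subunit, 3 of the stalk and 31 of the small subunit) and 9 are paralogs, namely Rpl3l, Rpl7l1, Rpl10l, Rpl22l1, Rpl32l, Rpl36al, Rpl39l, Rps4l and Rps27l.

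The ribosome is built from a large and a small subunit, each a scaffold of ribosomal RNA that carries a fixed set of small, basic proteins. The large subunit forms peptide bonds, the small subunit reads the codons, and the stalk of acidic proteins on the large subunit recruits the translation factors. Genes of the core proteins are among the most strongly transcribed in dividing cells, and their messengers begin with a pyrimidine-rich stretch, the 5′ TOP sequence, through which the mTORC1 kinase controls their translation. Most mammalian ribosomal protein genes have many processed copies in the genome. A few, such as Rpl10l and Rpl39l, have a functional paralog best known from male germ cells, where the partner on the X chromosome is silenced during meiosis.

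E14, a mouse embryonic stem cell (ESC) line with wild-type Sox2, was compared with E14-Sox2 TA/WT, in which 1 allele of the pluripotency factor Sox2 carries T258A, a change of threonine to alanine at a residue that is modified by O-GlcNAc. CRISPR/Cas9 editing of E14 with a single-stranded donor DNA introduced the change, and the line, called the mutant below, came from selected clones, whose number in the library is not given. Both were grown with serum and leukemia inhibitory factor, while the mutant line was otherwise kept with the inhibitors PD0325901 and CHIR99021 (2i) and used at passages after their removal. Each genotype had 1 library, so genotype, clonal selection and culture history cannot be told apart, no test between genotypes was possible, and every interval below covers counting error only.

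The E14 library held 60263536 counted reads and the mutant library 44609228. A point mutation leaves the transcript in place, so the level of Sox2 does not check the labels: it was 373 TPM in E14 and 274 TPM in the mutant. TPM (the usual per-library share of transcripts) scales the reads of a gene by transcript length and by the library, and it is used below for all levels. Of 10 ESC markers, all passed 10 TPM in at least 1 library, and Nanog was the only one more than 2-fold apart (527 and 251 TPM). Of 10 fibroblast and feeder markers only Thy1 passed 10 TPM (40.1 and 11.4 TPM), and Dcn, Lum and Postn had 0 reads in both libraries. Below 10 TPM, Pdgfrb was lower in the mutant (1151 and 327 reads). Col3a1 (15 and 151 reads), Col1a2 (43 and 109), S100a4 (4 and 32), Col1a1 and Twist1 were low but higher in the mutant by TPM. This list summed to 55.4 TPM in E14 and 29.3 TPM in the mutant. Of 10 striated muscle markers only Des passed 10 TPM (22.5 and 12.3 TPM). Acta1 (107 and 193 reads) and Actc1 (7 and 60) were higher in the mutant. Myh6 (461 and 159 reads), Myh7 (154 and 63), Ckm (59 and 17), Tnnt3, Myl2 and Tnnt2 were lower, and Myl1 had 0 reads in both libraries. The muscle list summed to 31.6 TPM in E14 and 22.8 TPM in the mutant.

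The coding sequences of the paralogs that differed most between the genotypes are shown first, each beside its core partner, because reads from the coding part of a pair can be told apart only at bases that differ. They are from GENCODE M21 (GRCm38), and capitals mark the bases that differ within a pair. Rpl39l lies on chromosome 16 (10170226 to 10174911, plus strand) and Rpl39 on chromosome X (37082520 to 37085402, minus strand); their whole coding sequences of 153 bases differed at 23 positions. Rpl10l lies on chromosome 12 (66283379 to 66284401, minus strand) and Rpl10 on chromosome X (74270812 to 74273135, plus strand); their coding sequences of 642 bases differed at 98 positions, of which 25 fall in the first 150 bases.
Rpl39l: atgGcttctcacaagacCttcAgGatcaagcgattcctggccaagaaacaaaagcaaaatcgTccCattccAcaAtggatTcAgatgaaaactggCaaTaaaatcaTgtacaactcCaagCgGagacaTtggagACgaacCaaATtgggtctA
Rpl39: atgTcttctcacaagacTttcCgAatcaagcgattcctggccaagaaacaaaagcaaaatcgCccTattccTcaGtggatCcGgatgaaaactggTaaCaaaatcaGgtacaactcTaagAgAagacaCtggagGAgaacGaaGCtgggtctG
Rpl10l: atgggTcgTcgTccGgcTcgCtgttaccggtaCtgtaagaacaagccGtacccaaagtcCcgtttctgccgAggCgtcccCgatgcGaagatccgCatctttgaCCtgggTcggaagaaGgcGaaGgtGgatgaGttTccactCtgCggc
Rpl10: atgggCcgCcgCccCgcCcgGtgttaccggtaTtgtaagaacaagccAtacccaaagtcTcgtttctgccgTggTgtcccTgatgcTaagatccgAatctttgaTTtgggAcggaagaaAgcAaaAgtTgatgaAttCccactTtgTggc

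None of the 50-base windows of either whole paralog transcript, untranslated parts included, occurred in a transcript of its partner. A read of that length or longer that matched 1 gene of the pair without error therefore could not match the other so. Near-identical copies outside the pair (9 each for Rpl10 and Rpl39, 1 for Rpl10l) were not compared in this way.

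Core ribosomal protein genes were the most abundant group of messengers in both libraries. They held 22.6% of all TPM in E14 and 20.2% in the mutant, and 66 and 65 of the 100 genes with the highest TPM, respectively. In reads, which are not scaled by length, their share was 9.35% in E14 and 7.62% in the mutant. Of the 77 core genes, 72 exceeded 500 TPM in both libraries, where they ranged from 589 to 8378 TPM in E14 and from 514 to 7841 TPM in the mutant. The order of the core genes by TPM was nearly the same in the libraries (Spearman rho of 0.97 over 77 genes, which share a length scaling and a source in each library).

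Rpl8, a protein close to the peptidyl transferase center, had the highest level, at 8378 TPM in E14 and 7841 TPM in the mutant. By the mean of the libraries it was followed by Rpl13 (5626 and 4624 TPM) and Rpl12 (5423 and 4701 TPM), both of the large subunit. At the other end stood Rps27 (18.9 and 9.41 TPM), Rpl26 (20.5 and 20.6 TPM) and Rpl34 (65.5 and 66.5 TPM). These low values were not those of the proteins' whole messenger pool, as the copies described further on show.

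**Figure D1:**
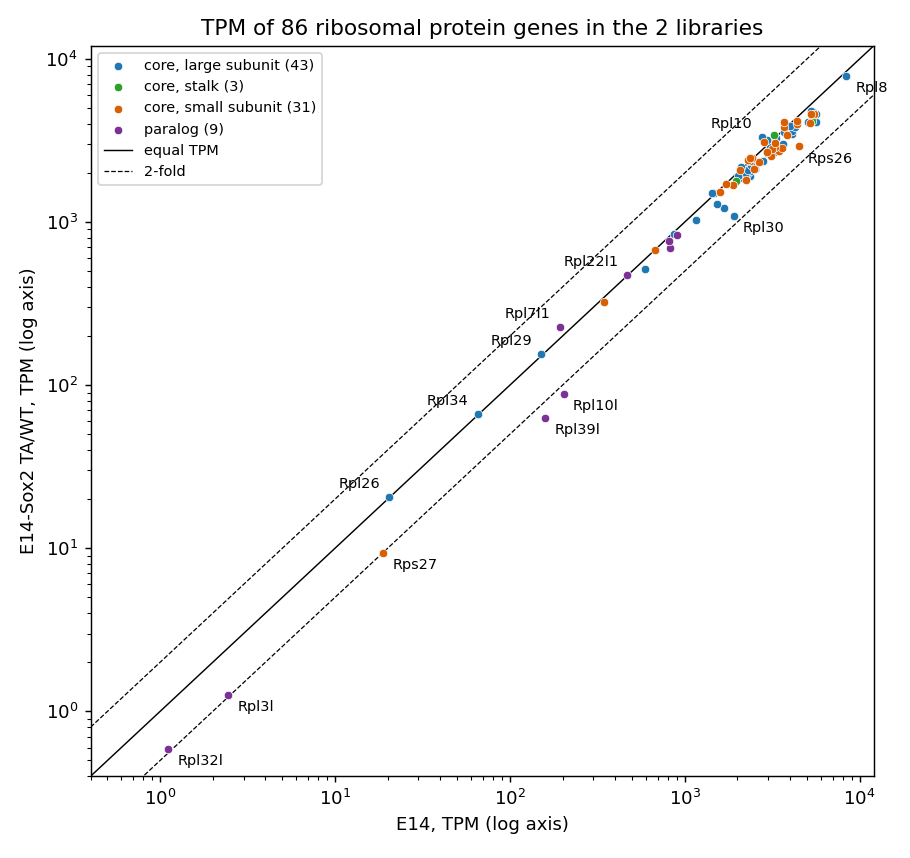
TPM of each of the 86 genes in E14 (horizontal log axis) against E14-Sox2 TA/WT (vertical log axis), 1 point per gene, coloured by subunit or as a paralog. Most core genes lie in a tight cloud close to the line of equal TPM, and Rpl39l and Rpl10l lie below the lower dashed line that marks a 2-fold difference.

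Across the core genes the mutant library was slightly lower by TPM. The median log2 TPM ratio (mutant over E14) was -0.15, and the middle 50% ran from -0.25 to -0.02. The medians of the single-gene lower and upper counting limits were -0.17 and -0.13, which do not form an interval of the group median. The summed TPM of 224095 in E14 and 200707 in the mutant gave a log2 ratio of -0.16. Of the 77 genes, 60 were lower and 17 higher in the mutant, while 42.7% of the 9094 genes with at least 10 TPM in 1 library were lower. Over all those genes the median log2 ratio was 0.08, so the core genes stood -0.23 from it, and 73 of 77 lay below it. The counting interval lay below 0 for 58 core genes, above 0 for 11 and across 0 for 8. In RNA from whole cultures, fewer cells with a messenger and less of it per cell cannot be told apart.

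The size of this shift was small beside the 2-fold mark. Of the 84 members tested (77 core genes and 7 paralogs with at least 10 TPM in 1 library; Rpl3l and Rpl32l were below it), 0 were more than 2-fold higher in the mutant, against 4.17% of all genes tested. More than 2-fold lower were 3 (Rpl39l, Rpl10l and Rps27), against 4.07% of all genes tested. Past 1.5-fold, 5 members were lower, Rpl30 and Rps26 being the others, and 0 were higher, against 10.5% and 14.2% of all genes. Past 1.2-fold, 14 core genes were lower and only Rpl10 was higher, where all genes tested had 23.3% lower and 34.7% higher.

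**Figure D2:**
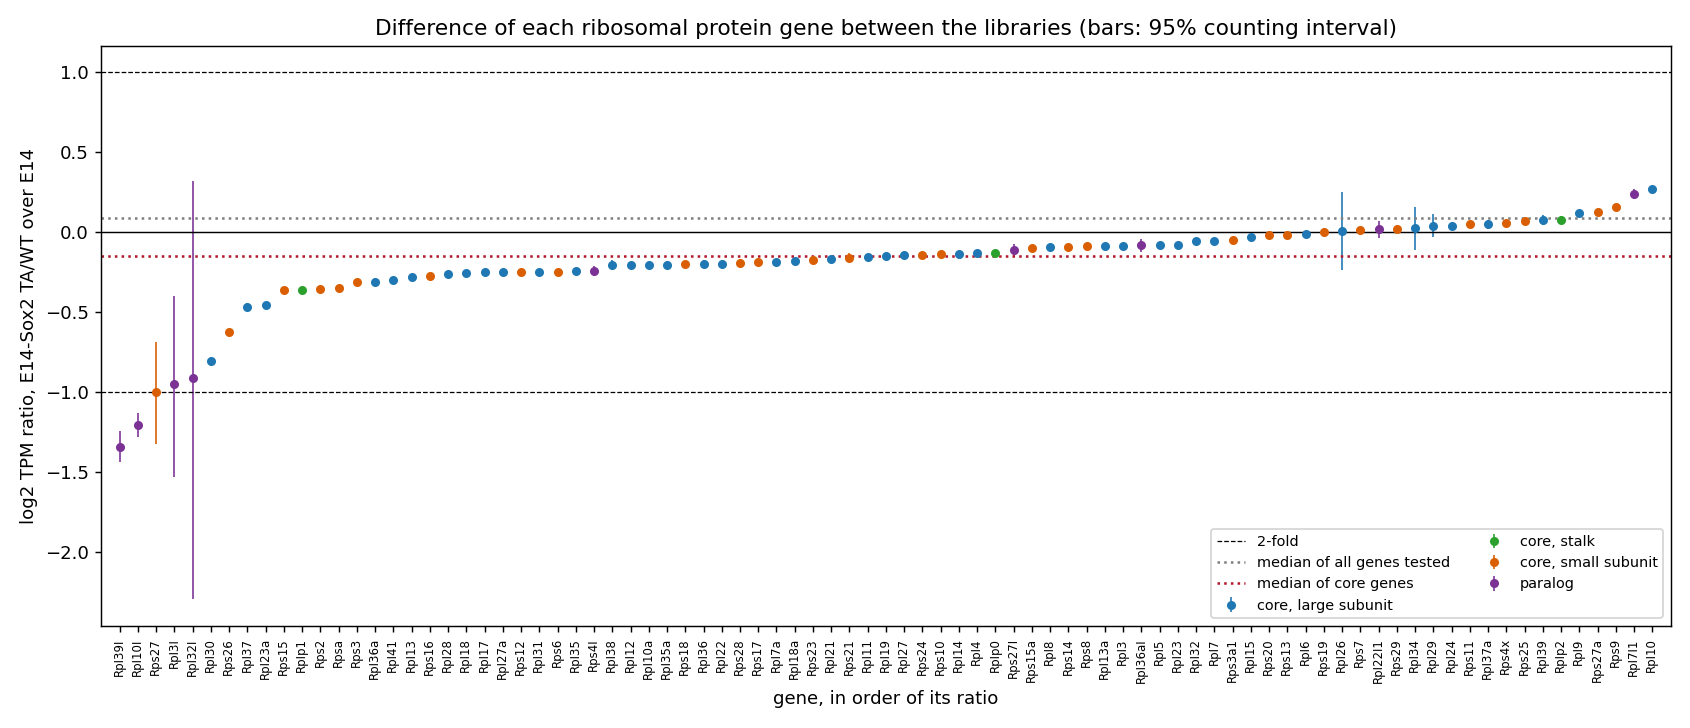
Log2 TPM ratio of E14-Sox2 TA/WT over E14 (vertical axis) for the genes of the family in order of the ratio, with 95% counting intervals as bars; dashed lines mark 2-fold and dotted lines the medians of the core genes (-0.15) and of all genes tested (0.08). Rpl39l and Rpl10l stand at the low end past 2-fold, and most core genes form a shallow slope between -0.36 and 0.16.

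Core genes have mostly short transcripts, and other genes with short transcripts were also lower as a group. The median length of a core transcript was 830 bases, against 2739 bases over all genes tested, and across all genes tested the log2 ratio was higher for longer transcripts (Spearman rho of 0.38 as a description across genes of the same pair of libraries). The 693 other genes tested with a transcript of at most 1000 bases had a median log2 ratio of -0.19, and 457 of them were lower in the mutant. With the trend of the ratio over length taken out of all genes, the core median was 0.08 and that of all genes 0.08. Below 0 were 23 of 77 core genes, and 40 lay below the median of all genes. With trends over both GC content and length taken out, the core median was 0.09 and that of all genes 0.09. Then 22 core genes lay below 0 and 37 below the median of all genes. As a group the core genes (median -0.15 by TPM) stood near the other short transcripts, though not in every length class, as given next. The trends were learnt with the core genes included. What set the libraries apart by length was not tested.

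By length class the picture was uneven. Core genes with transcripts of at most 600 bases (21 genes) had a median log2 ratio of -0.20, and the 199 other genes of that class one of -0.06. Between 600 and 1000 bases the 33 core genes had a median of -0.14 and the 493 other genes one of -0.23. Between 1000 and 2000 bases the medians were -0.14 for 19 core genes, of which 18 were lower, and -0.08 for 2110 other genes. Within the core genes alone the ratio hardly went with length (Spearman rho of 0.10 over 77 genes), GC content (-0.13) or mean TPM (-0.16). Of the 72 core genes above 500 TPM in both libraries 58 were lower, while among all 256 genes with a mean of at least 500 TPM, these included, 56.2% were. The 181 genes of that level outside the family had a median of 0.03.

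**Figure D3:**
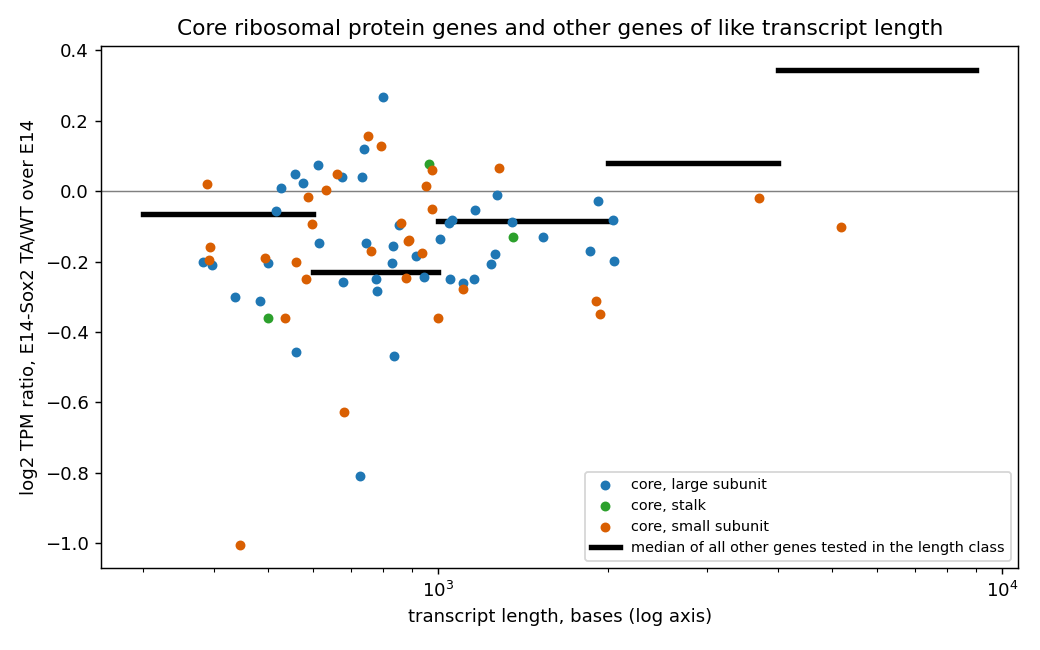
Log2 TPM ratio of E14-Sox2 TA/WT over E14 (vertical axis) of each of the 77 core genes against transcript length in bases (log axis), with black bars at the median of all other genes tested in 5 length classes. The bars climb from -0.23 between 600 and 1000 bases to 0.35 above 4000 bases, and most core genes lie at the short end.

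The large subunit genes had a median log2 TPM ratio of -0.15, with 35 of 43 lower in the mutant. Rpl30, a large subunit protein that also binds its own transcript in yeast, differed most among well covered core genes: it had 32849 reads in E14 and 12699 in the mutant, or 1907 and 1088 TPM, a log2 ratio of -0.81 (counting interval -0.84 to -0.78). Rpl37, a zinc-binding protein of the large subunit, had 1684 TPM in E14 and 1218 TPM in the mutant (-0.47). Rpl23a, which sits at the exit of the peptide tunnel, had 5633 and 4104 TPM (-0.46). All of these kept a lower value under each of the 9 other scalings tried, Rpl30 between -0.95 and -0.56.

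Rpl10, which joins the large subunit late and completes it for translation, was the highest of the core genes in ratio. It had 2749 TPM in E14 and 3308 TPM in the mutant, a log2 ratio of 0.27 (counting interval 0.25 to 0.28), and it stayed higher under every other scaling (0.12 to 0.58). Rpl9, another large subunit protein, had 2948 and 3202 TPM (0.12), and Rpl39, a very small protein that lines the peptide tunnel, had 1429 and 1503 TPM (0.07). Both of these changed sign between scalings.

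The stalk is made of Rplp0, which anchors it, and of Rplp1 and Rplp2, which bind to Rplp0 as dimers. Rplp0 had 1962 TPM in E14 and 1792 TPM in the mutant (log2 ratio -0.13), Rplp1 had 5334 and 4154 TPM (-0.36), and Rplp2 had 3236 and 3415 TPM (0.08). The partners Rplp1 and Rplp2 therefore did not keep the same ratio in the libraries, although their proteins are held in equal number on the ribosome. Rplp1 was lower under all 9 alternatives, and Rplp2 changed sign in 3 of them.

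The small subunit genes had a median log2 TPM ratio of -0.14, with 23 of 31 lower in the mutant. Rps26, which contacts the messenger upstream of its start codon, had 63436 reads in E14 and 27516 in the mutant, or 4496 and 2910 TPM, a log2 ratio of -0.63 (counting interval -0.65 to -0.61). Rps15, which lies in the head of the subunit, had 3478 and 2708 TPM (-0.36). Rpsa, a small subunit protein also known as the laminin receptor, had 3616 and 2839 TPM (-0.35). Rps26 remained lower under every other scaling, between -0.77 and -0.38.

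On the higher side of the small subunit stood Rps9, a protein near the entry channel of the messenger, with 3675 TPM in E14 and 4095 TPM in the mutant (log2 ratio 0.16, counting interval 0.14 to 0.17). Rps27a, which is made as a fusion with ubiquitin, had 2829 and 3091 TPM (0.13). Rps9 stayed higher under every other scaling (0.01 to 0.44), whereas Rps27a was lower in 2 of 9. Across the core genes as a whole, 16 were lower and 2 (Rpl10 and Rps9) were higher in TPM and in all 9 alternatives. The direction of the other 59 depended on the scaling. The scalings also moved the median of all genes, from -0.06 with FPKM to 0.09 with GC and length trends taken out.

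The starts of Rps26 and Rps9, the small subunit genes at either end among those well covered, are shown here for the pyrimidine run that is the known hallmark of the family. The windows, from RefSeq on GRCm38.p6, run from 70 bases before the annotated start to 30 bases after it, and capitals mark the longest unbroken run of C and T near the start. The Rps26 window is chr10:128626477-128626576 on the minus strand, with a run of 9 bases. The Rps9 window is chr7:3703971-3704070 on the plus strand, also with a run of 9 bases. Only runs that reach within 20 bases before the start, or lie after it, were counted. In the same windows of Rps15, Rpl37, Rpl9 and Rpl10 the longest of these runs had 7, 6, 4 and 4 bases. Up to 50 bases after the start, the wider window used below, each of these genes had a run of at least 8.
Rps26: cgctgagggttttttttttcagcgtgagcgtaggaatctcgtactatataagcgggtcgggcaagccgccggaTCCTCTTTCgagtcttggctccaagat
Rps9: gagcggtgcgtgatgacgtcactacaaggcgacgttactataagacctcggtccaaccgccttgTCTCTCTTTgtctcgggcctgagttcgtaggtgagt

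In the GENCODE transcripts, a run of at least 8 C or T letters on the sense strand within the first 30 bases was found for 19 of 77 core genes (24.7%), for 0 of 9 paralogs and for 8.28% of the genes tested. Core genes with such a run had a median log2 TPM ratio of -0.15, and the 58 without it one of -0.15. Within a wider window, from 20 bases before to 50 bases after the RefSeq start, such a run was found for 45 of the 57 core genes with an entry (78.9%), for 5 of 8 paralogs and for 26.3% of genes tested. Since 20 core genes had no entry, nothing is read from that difference. In that window, core genes with a run had a median log2 TPM ratio of -0.16 and the other 12 one of -0.14.

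The core genes lie on 19 chromosomes, and their ratios varied with place. On chromosome 15 all 4 core genes were lower in the mutant, with a median of -0.28, and the 396 genes tested there had a median of -0.14. Rpl30 lies at chr15:34440505-34443276, where the 24 other genes tested within 5 Mb had a median log2 ratio of -0.36, 5 of them lower than Rpl30. Around Rps26 the genes tested within 5 Mb had a median of -0.05 (4 of 61 lower than it), around Rpl23a one of 0.13 (4 of 79 lower) and around Rpl37 one of -0.04 (3 of 15 lower). On the X chromosome 3 of 4 core genes, Rpl10, Rps4x and Rpl39, were higher, and Rpl36a was lower (2359 and 1901 TPM, -0.31). The core median there was 0.07, below the median of 0.18 of the 291 genes tested on that chromosome. Around Rpl10, 43 genes within 5 Mb had a median of -0.08, and around Rps9 41 genes had one of -0.16. Copy number of these regions was not measured, so its part in the ratios was not tested.

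The paralogs differed among themselves. Rpl10l and Rpl39l were more than 2-fold lower in the mutant while their core partners were not, and the log2 ratios of Rpl7l1, Rpl22l1, Rpl36al, Rps4l and Rps27l lay between -0.24 and 0.24. Together the 9 paralogs held 0.36% of all TPM in E14 and 0.32% in the mutant.

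Rpl39l had 4049 reads in E14 and 1070 in the mutant, or 160 and 63.0 TPM, a 2.54-fold lower level (log2 ratio -1.34, counting interval -1.44 to -1.24). Of the reads of Rpl39 and Rpl39l together, Rpl39l held 17.2% in E14 (exact interval 16.7% to 17.7%) and 7.21% in the mutant (6.80% to 7.64%). Relative to its partner the paralog was lower by a log2 difference of -1.42. It stayed past 2-fold under each of the 9 alternatives, from -1.49 to -1.03. No near-identical copy of its coding sequence was found in the annotation, and the 32 genes tested within 5 Mb had a median of 0.03.

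Rpl10l had 6547 reads in E14 and 1900 in the mutant, or 203 and 88.0 TPM, a 2.31-fold lower level (log2 ratio -1.21, counting interval -1.28 to -1.13). It held 8.69% of the reads of its pair in E14 (8.49% to 8.89%) and 3.31% in the mutant (3.17% to 3.46%), and with Rpl10 slightly higher the log2 difference between the genes of the pair was -1.47. Under the alternatives Rpl10l ranged from -1.35 to -0.90, on the lower side throughout but short of 2-fold once the length trend was taken out, alone or with that over GC. Its coding sequence had 1 near-identical copy in the annotation, which has no entry of its own in the table. The 25 genes tested within 5 Mb had a median of 0.14, none of them as low as Rpl10l.

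Because both paralogs are known from the germ line, germ cell genes are given beside them. Of 12 germ cell markers 5 passed 10 TPM and all 5 were lower in the mutant, where 42.7% of all genes tested were lower. Stra8 and Dazl passed 10 TPM only in E14, so the filter itself set their direction, while Sycp3, Ddx4 and Tex14 passed it in both libraries. Past 2-fold lower were 2 of them (Stra8 and Sycp3), against 4.07% of all genes tested. The summed level of the list, with Stra8 its largest part in E14, was 354 TPM in E14 and 93.7 TPM in the mutant. Stra8, which starts the meiotic program and also answers to retinoic acid in ESCs, had 198 and 8.40 TPM (log2 ratio -4.56). Sycp3, a protein of the meiotic chromosome axis, had 85.4 and 32.2 TPM (-1.41), Dazl 16.3 and 9.53 TPM, Ddx4 32.6 and 26.5 TPM, and Tex14 18.1 and 15.1 TPM. The sperm protein genes Prm1, Prm2 and Acrv1 had 0 reads in both libraries. Whether the germ cell genes and the paralogs moved together in the same cells was not tested.

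The other paralogs kept closer to their partners, though Rpl3l, Rpl32l and Rps27l still stood -0.87, -0.86 and 0.89 in log2 ratio from theirs. Rpl22l1, which can stand in for the RNA-binding protein Rpl22, had 470 TPM in E14 and 475 TPM in the mutant (log2 ratio 0.02), and Rpl22 had 589 and 514 TPM (-0.20), so that the pair came closer to equal levels. Rpl36al had 809 and 763 TPM (-0.08) beside Rpl36a at -0.31. Rps27l, known as a p53 target, had 903 and 834 TPM (-0.11). Its partner Rps27 was at -1.004 alone and at 0.26 with its copy Rps27rt included, as described further on. Rps4l, which resembles the X-linked Rps4x, had 823 and 695 TPM (-0.24), while Rps4x had 3682 and 3837 TPM (0.06).

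Rpl7l1, a distant relative of Rpl7 with a role in ribosome assembly, was the paralog with the highest ratio, at 193 TPM in E14 and 228 TPM in the mutant (log2 ratio 0.24, higher under all 9 alternatives), whereas Rpl7 had 4005 and 3858 TPM (-0.05). The muscle form Rpl3l was low, with 107 and 37 reads (2.45 and 1.27 TPM), while Rpl3 had 3070 and 2891 TPM (-0.09). Rpl32l had 21 and 8 reads, too few to tell the libraries apart (counting interval -2.30 to 0.32), and its partner Rpl32 had 3705 and 3562 TPM (-0.06).

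**Figure D4:**
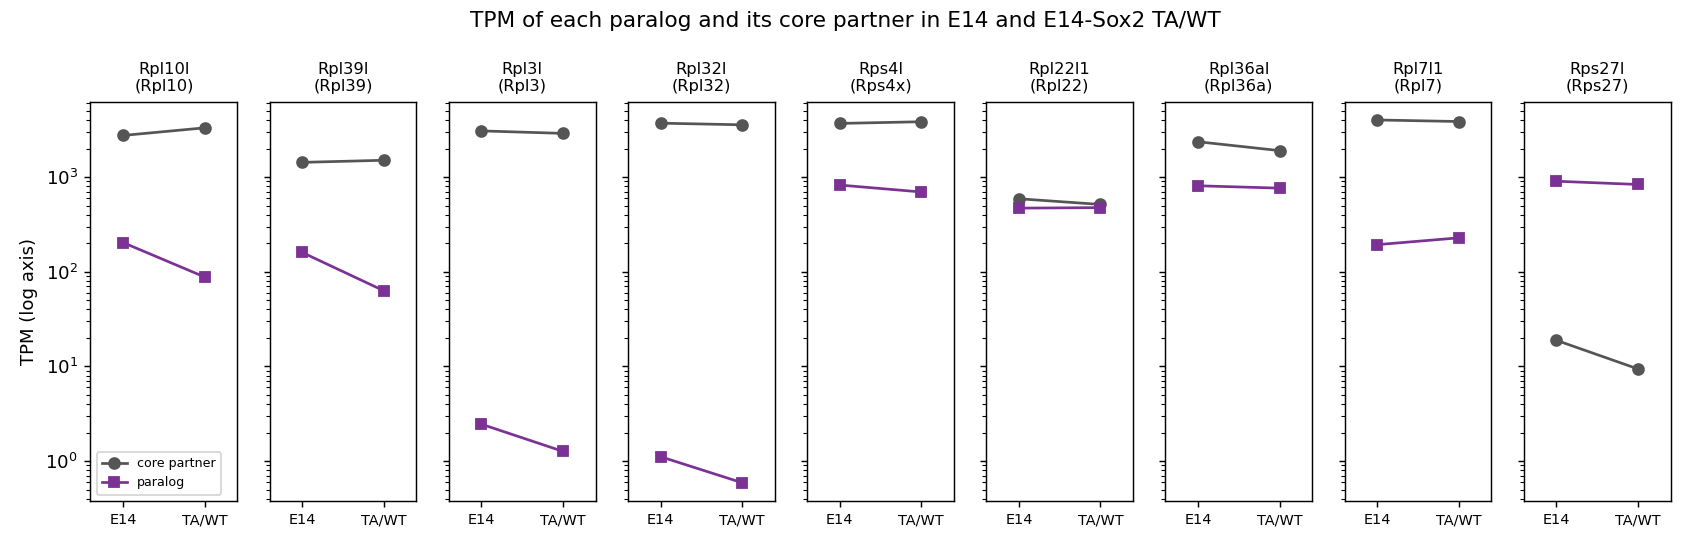
TPM (log axis) of each of the 9 paralogs (squares) and its core partner (circles) in E14 and E14-Sox2 TA/WT (TA/WT on the axis), ordered by the difference of the log2 ratios within the pair. Rpl10l and Rpl39l slope downward under a partner that is level or slightly up. Rps27l lies above Rps27, which is drawn without its copy Rps27rt.

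Near-identical copies bear on how far a single core gene can be read. Of the 77 core genes, 74 had at least 1 other annotated transcript with at least 95% identity over at least 90% of the coding sequence, 563 such copies in all, whereas Rpl8 and Rps3 had none. Reads from such a copy and from its parent can be assigned to either, and how they were assigned is not given in the sources used here. Of the core genes, 12 had a copy with its own entry in the table.

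In 3 of these the copy held most of the reads. Rpl26 had 350 reads in E14 and 236 in the mutant, whereas its copy Gm15772 on chromosome 5 had 72667 and 43159 reads, or 4437 and 3933 TPM. Rps27 had 340 and 110 reads, and Rps27rt on chromosome 9 had 20820 and 16368 reads, or 1916 and 2248 TPM. Rpl34 had 1087 and 766 reads, and Rpl34-ps1 had 5987 and 3264 reads. With the reads of parent and copy summed, the log2 ratio of Rpl26 was -0.17 in place of 0.01, that of Rpl34 -0.28 in place of 0.02, and that of Rps27 0.26 in place of -1.004. The 2-fold lower value of Rps27 thus rested on the small part of its reads that were given to the gene itself, with a counting interval of -1.33 to -0.69, and it turned with the copy included.

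For the other core genes named above, copies with their own entry weighed little where there were any. Copies without an entry, such as the 17 of Rpl23a and the 9 of Rpl10, could not be weighed. Rpl30 with Gm12191 (289 and 14 reads) moved from -0.81 to -0.82, and Rps26 with Gm6654 (5 and 7 reads) stayed at -0.63. Rpl37 with Rpl37rt (902 and 265 reads) moved from -0.47 to -0.48. Rplp2-ps1 had 1508 reads in E14 and 9 in the mutant, and with it Rplp2 moved from 0.08 to 0.03. Rpl29, with 3881 and 2931 reads, had 27 copies in the annotation, and its level of 151 and 155 TPM may hold only a part of its messenger.

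The other proteins of the ribosome and the machinery around it were taken from lists of genes. Fau, whose product is cleaved into a ubiquitin-like part and a ribosomal protein, had 1338 TPM in E14 and 1184 TPM in the mutant (log2 ratio -0.18). Rack1, a scaffold on the small subunit, had 3436 and 3106 TPM (-0.15). Mitochondrial ribosomal protein genes, which belong to a separate ribosome but also have short transcripts (median 1233 bases), behaved much as the core genes did: 55 of 78 were lower, with a median of -0.12, and 0.09 with the length trend taken out.

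Genes that build the ribosome showed higher values where the core genes showed lower ones. Of 40 ribosome biogenesis factors, 35 were higher and 5 lower in the mutant, where 57.3% of all genes tested were higher, with a median log2 TPM ratio of 0.36, 0.43 with the length trend taken out and 0.36 with GC and length trends taken out. Utp14a, a factor of the small subunit processome, was the only one past 2-fold (74.95 and 154 TPM, log2 ratio 1.04). Of 15 genes of RNA polymerase I and its factors, which transcribe ribosomal RNA, 12 were higher with a median of 0.35, from Znrd1 at -0.27 to Polr1b at 0.96. Of 14 chaperones and importers of ribosomal proteins tested, 11 were higher with a median of 0.40. Tsr2, the chaperone of Rps26, was past 2-fold (8.14 and 19.7 TPM, 1.28) while Rps26 itself was lower. It passed 10 TPM only in the mutant, so the filter set its direction.

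The regulators and translation factors were mixed. Of 7 Myc family genes tested, Myc (27.1 and 102 TPM, log2 ratio 1.91) and Mycn (45.5 and 118 TPM, 1.38) were more than 2-fold higher, against 4.17% of all genes tested. Mxi1, which opposes Myc, was at -0.41, while Mnt (0.68), Mlx (0.38), Mxd3 (0.10) and Max (0.09) were higher. Of 20 translation factors and other genes listed for a 5′ TOP messenger, 10 were lower and 10 higher. They ran from the poly(A)-binding protein gene Pabpc1 (2517 and 1502 TPM, -0.75), which lies on chromosome 15 near Rpl30, to Hnrnpa1 (143 and 867 TPM, 2.60). Other translation initiation factors had a median of 0.14 over 26 genes. In the mTORC1 list, 12 of 17 were higher, against 57.3% of all genes tested, with a median of 0.14. That median was -0.01 with GC and length trends taken out (8 of 17 higher) and -0.00 with FPKM. The list ran from Eif4ebp1, the repressor of cap-dependent translation (1128 and 648 TPM, -0.80), to Tia1 (0.63).

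**Figure D5:**
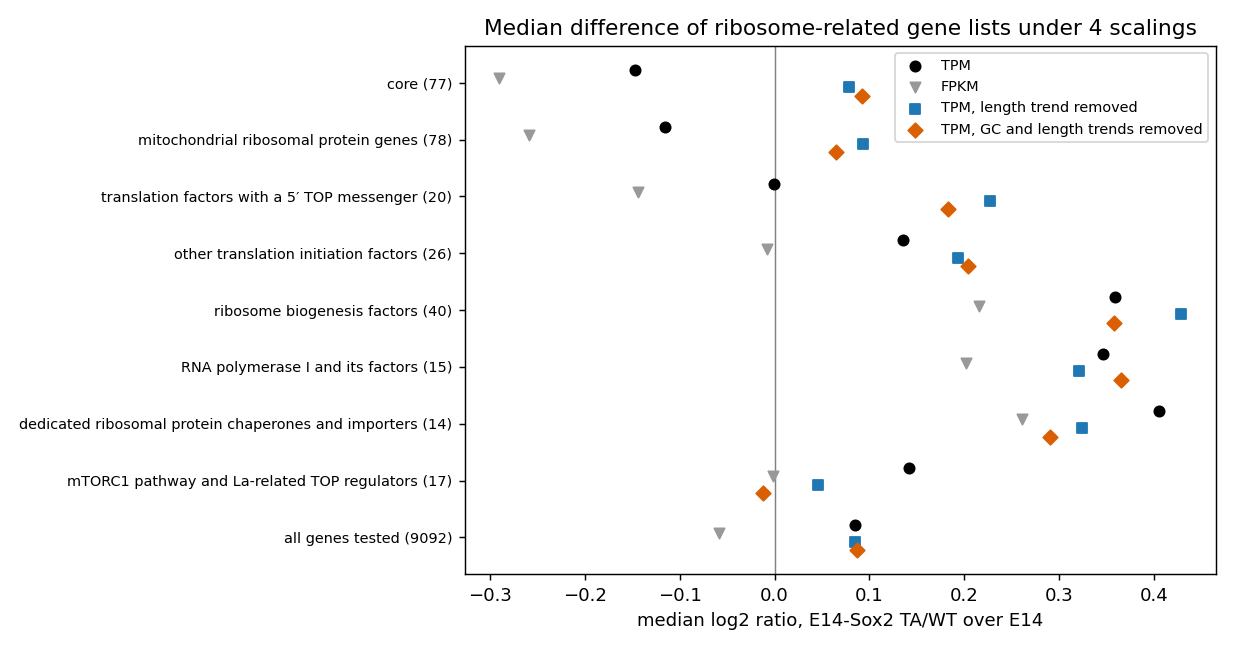
Median log2 ratio of E14-Sox2 TA/WT over E14 (horizontal axis) of the core genes and of 7 gene lists around them, with all genes tested in the last line (2 genes at 0 in a library left out), from TPM, from FPKM and from TPM with length or GC and length trends taken out; the number of genes is in parentheses. The core genes and the mitochondrial ribosomal protein genes cross 0 when the trends are taken out and then lie near all genes tested. The biogenesis, RNA polymerase I and chaperone lists stay above 0.2 in each.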

How the data were processed

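RNA was sequenced from 1 library each of E14 and E14-Sox2 TA/WT. The authors deposited 1 gene table on mm10 with read counts, FPKM and TPM per gene. The submitters' processing notes name bcl2fastq 2.20.0, Trimmomatic, HISAT2 2.1.0 and StringTie 2.1.3b, and the builds mm10 and hg19, without roles. Strand and the handling of reads with several matches are not given in the sources used here, so antisense and copied genes cannot be told apart with certainty.

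The deposited TPM was used with no pseudocount, for genes with at least 10 TPM in 1 library, and differences are log2 ratios of E14-Sox2 TA/WT over E14. The deposited counts gave exact Clopper-Pearson intervals (95%) of the ratio, and the deposited FPKM gave an alternative. No test was made, since no genotype had a replicate. Other scalings were TMM (edgeR 4.0.16), median-of-ratios (DESeq2 1.42.0), CPM, and the removal of binned median trends (20 bins) over length or GC and length. These steps were tested on simulated data. Copies were sought with blastn 2.17.0 in GENCODE M21, chosen as an alternative after the data were seen.

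Members and lists were chosen with earlier results of these data known. Genes named were all paralogs with partners, members past 2-fold, the 6 highest and 6 lowest core genes by ratio, the 3 highest and 3 lowest by mean TPM, the stalk and Rpsa, genes with a copy that holds over 10% of the reads of the parent, and the extremes of each list. The remaining names, namely Rps4x, some cell type markers and genes with other copies, were chosen after their values were seen. Sequences were from GENCODE and RefSeq; of the 86 members, 65 had a RefSeq promoter entry, under 80%, so shares over promoters are given as counts and support nothing. Single values of some genes of the lists are not reported here.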

Additional observations from a re-analysis of the deposited data

How the results depend on the processing

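The count of 0 members more than 2-fold higher held in every alternative. The count of 3 lower became 1 with the length trend or GC and length trends taken out (Rpl39l remained) and 5 at 1.5-fold. The median core log2 ratio of -0.15 became -0.19 with TMM, -0.23 when centred on all genes and -0.29 with FPKM or with CPM. It reversed in sign to 0.078 with the length trend and 0.0926 with GC and length trends taken out. The medians of all genes were then 0.0844 and 0.0864, so the core stood -0.0064 and 0.0062 from them, near all genes rather than above them. The log2 ratio of summed core TPM (-0.16) became -0.20 with TMM, -0.18 with median-of-ratios, -0.24 when centred, -0.30 with FPKM or with CPM, and -0.13 without the 10 highest core genes. It reversed in sign to 0.0936 with the length trend and 0.0876 with GC and length trends taken out, likewise near the medians of all genes. FPKM and CPM lower the median of all genes from 0.08 to -0.06, and the core stood -0.23 from it under each. Of the genes past 2-fold only Rps27 reversed, to 0.26, when its near-identical copy was included. Members close to 0 crossed it more easily, and with copies included Rpl26 became -0.17, Rpl34 -0.28 and Rpl22l1 -0.01. No paired analysis was possible because each genotype had 1 library, and for the same reason no library could be left out. Depth limited Rps27, Rpl26, Rpl3l and Rpl32l, and near-identical copies limited most single core genes.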
